A study of Mus musculus with 4 samples.

Results

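TIGIT, CD226 and CD96 are receptors on T cells (Tc) that compete for a shared set of nectin-family ligands, and the genes described here are Tigit, Cd226, Cd96 and the genes of the ligands PVR (CD155) and nectin-2 (CD112), Pvr and Nectin2. They were chosen by symbol, 5 of the 32285 genes counted, and all 5 were present in every library. Their transcripts were counted in single cells from the spleens of BALB/c mice after allogeneic hematopoietic cell transplantation (allo-HCT). The recipients had been lethally irradiated and given 10000 WEHI-3B cells, a mouse acute myeloid leukemia (AML) line, with bone marrow of C57BL/6 background, followed on day 2 by 200000 donor Tc, and spleen cells were taken at day 23. Donors were Havcr2fl/fl;E8icre/+ in 2 libraries and Havcr2fl/fl in 2 libraries, with bone marrow and Tc from the same genotype, and all 4 libraries carried an H-2Kb oligo tag for donor cells. Havcr2 encodes TIM-3, both genotypes carry the floxed allele, and E8icre, driven by an enhancer of the CD8 locus, is meant to delete it in CD8+ Tc. The comparison of the genotypes therefore asks how deletion of TIM-3 in CD8+ Tc relates to these genes after allo-HCT, and CD4+ Tc of the same mice serve as cells in which the deletion is not intended.

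TIGIT carries an inhibitory motif in its tail and binds PVR with high affinity and nectin-2 more weakly, whereas CD226 (DNAM-1) binds the same ligands and costimulates, so that the outcome for a T cell depends on the balance of the pair. CD96 also binds PVR, and its role in CD8+ Tc is less settled. In tumors and chronic infection TIGIT is known as one of several receptors that accumulate on exhausted CD8+ Tc and on regulatory T cells (Treg), while loss of CD226 from the surface accompanies dysfunction.

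All coordinates are in GRCm38 with the GENCODE annotation. Tigit (ENSMUSG00000071552) lies on chr16:43648867-43664146 and Cd96 (ENSMUSG00000022657) on chr16:46035657-46120251, both on the minus strand. Pvr (ENSMUSG00000040511) lies on chr7:19903578-19921160 and Nectin2 (ENSMUSG00000062300) on chr7:19716644-19750483, also on the minus strand. Nectin2 shares exon bases with Gm20512 on the opposite strand. Cd226 is ENSMUSG00000034028. The promoter windows of the receptors Tigit and Cd96 and of the ligand Nectin2 are shown, the former pair counted mostly in Tc and the latter mostly outside Tc. No promoter is printed for Pvr or Cd226. Each window runs from 250 bases before to 50 bases after the transcript start in RefSeq (GRCm38.p6) and is written 5′ to 3′ on the gene's strand. Capitals mark matches, on either strand, to TGTGGT (a RUNX core), CCGGAA (an ETS core) or GGGCGG (a GC box).
Tigit, chr16:43664135-43664434, minus strand: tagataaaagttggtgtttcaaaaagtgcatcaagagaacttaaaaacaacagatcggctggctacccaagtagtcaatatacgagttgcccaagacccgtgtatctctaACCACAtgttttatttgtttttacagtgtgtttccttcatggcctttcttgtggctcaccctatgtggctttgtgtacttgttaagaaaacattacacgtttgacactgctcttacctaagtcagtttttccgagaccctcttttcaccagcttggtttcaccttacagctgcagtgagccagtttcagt
Cd96, chr16:46120199-46120498, minus strand: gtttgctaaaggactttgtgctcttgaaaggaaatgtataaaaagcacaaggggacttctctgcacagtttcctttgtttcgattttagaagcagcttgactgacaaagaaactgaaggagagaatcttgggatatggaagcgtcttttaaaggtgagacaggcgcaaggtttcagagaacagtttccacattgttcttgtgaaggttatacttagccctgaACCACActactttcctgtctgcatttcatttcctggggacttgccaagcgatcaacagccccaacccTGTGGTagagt
Nectin2, chr7:19749524-19749823, minus strand: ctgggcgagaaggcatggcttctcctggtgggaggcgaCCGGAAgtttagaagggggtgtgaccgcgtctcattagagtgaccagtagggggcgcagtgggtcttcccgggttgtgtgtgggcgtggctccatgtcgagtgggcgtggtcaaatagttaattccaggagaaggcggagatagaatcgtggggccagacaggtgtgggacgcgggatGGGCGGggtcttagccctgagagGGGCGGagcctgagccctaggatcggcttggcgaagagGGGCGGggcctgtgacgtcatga
The Tigit window held 1 match to TGTGGT and the Cd96 window 2, and 16.8% of the 32851 RefSeq promoter windows held at least 1. The Nectin2 window held 3 matches to GGGCGG, found in 35.7% of all windows, and 1 to CCGGAA, found in 14.9%. CTTTGA, a TCF core, was also searched on both strands and was in none of these 3 windows, against 16.0% of all windows. GC content was 41.3% for Tigit, 43.7% for Cd96 and 62.7% for Nectin2, with a median of 52.7% over all windows. A match is a description of letters only.

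The 4 libraries held 15784 barcodes and 142576164 unique molecular identifiers (UMIs, each standing for 1 captured transcript molecule). After filters 11507 cells were used, between 1204 and 4328 per library. The cells are labelled as T cells, but 4695 of them fell in clusters where 4.36 to 19.2% of cells had a Cd3 UMI, against at least 99.2% in the T cell clusters, and they are described separately as other cells. Tc were split by their own UMIs into 4283 CD8 Tc (Cd8a or Cd8b1, no Cd4) and 1767 CD4 Tc (Cd4, no Cd8a or Cd8b1). Libraries shared 1 to 10 barcodes. Hemoglobin and other erythroid markers, 8 genes, summed to between 2621 and 5309 CPM (UMIs of a gene scaled to a common library total) in CD8 Tc, and in CD4 Tc to 219.9 CPM in Havcr2fl/fl replicate 1 and to between 5809 and 6247 CPM in the other libraries. Of 5 natural killer cell markers, 2 had UMIs in CD8 Tc, at 31.6 to 49.6 CPM in sum, and B cell markers summed to 1.34 to 3.09 CPM. Their part in the results was not tested. Nothing in the labels describes pooling of mice, and with 2 libraries a genotype the p-values measure the spread between these libraries. A genotype fit without 1 library leaves 1 library in a genotype, so its p does not measure the spread within that genotype. The members were proposed with the genotype values of Tigit already seen, so its tests are descriptions of the same data and not independent evidence.

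Havcr2, the targeted gene, did not follow the labels in 1 library. In CD8 Tc its level was 58.4 CPM (from here on with TMM normalisation of library totals, unless called plain) in the library labelled Havcr2fl/fl;E8icre/+ replicate 1, 8.03 in the library labelled Havcr2fl/fl;E8icre/+ replicate 2, and 55.6 and 116 in the Havcr2fl/fl libraries. The first of these lay within the range of the floxed controls and the second lay well under it. The counted tags lie at the 3′ end of transcripts in every library, and the sources used here do not give the deleted exons. The cause of the difference in Havcr2 between the 2 libraries labelled Havcr2fl/fl;E8icre/+ was not tested, and the check is not settled. The libraries are called E8icre 1, E8icre 2, fl/fl 1 and fl/fl 2 from here on, by their labels, and the genotype differences of Tigit are also given without the library labelled E8icre 1 where a fit gave a value.

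Tigit was lower in CD8 Tc of both E8icre libraries. Its TMM-normalised level was 4.07 CPM in the library labelled E8icre 1, 4.02 in E8icre 2, 22.7 in fl/fl 1 and 21.5 in fl/fl 2, from 38, 28, 89 and 103 UMIs. The 2 genotypes did not overlap, and the libraries within each genotype lay close together. The log2 fold change was -2.44 (SE 0.25, 5.44-fold lower), with an adjusted p of 0.0139 from edgeR's quasi-likelihood test over 10897 genes. Of all genes tested 0.0275% were called, 3 in number, 0.00918% were called lower, and 14.2% were lower without overlap between the genotypes. Without the library labelled E8icre 1, which leaves a single E8icre library, the change was -2.46. The call was lost without E8icre 2 (-2.43, adjusted p = 0.165) or without fl/fl 1 (-2.40, adjusted p = 0.103), while the size of the change stayed near the full value. With the 125 doublets kept, 109 of them from fl/fl 2, it was -2.27 (adjusted p = 0.370), and with CD8 Tc assigned by whole clusters it was -1.32 (adjusted p = 0.269). A block on the replicate number also ended the call, as given with the processing below. Over 12 alternatives the change stayed negative in 12 and was past the threshold in 7.

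Few cells carried the transcript. A Tigit UMI was found in 36 of 1539 CD8 Tc of the library labelled E8icre 1, in 25 of 963 of E8icre 2, in 81 of 487 of fl/fl 1 and in 97 of 1294 of fl/fl 2, and no CD8 Tc held more than 3. These shares move with depth, which was a median of 4762, 6171, 6975 and 3028 UMIs per CD8 Tc in the same order. With every cell thinned to 2000 UMIs and shallower cells left out, the shares were 1.06%, 0.944%, 4.23% and 5.07%, from 1506, 953, 473 and 1145 cells. The 2 fl/fl libraries, far apart before thinning, then lay close together and above both E8icre libraries. Among other cells, which should lack Tigit, the thinned share was at most 0.0972% in any library, with 8 Tigit UMIs in all 4695 cells, at a median depth of 16915 UMIs per cell against 4803 in CD8 Tc.

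The lower level of Tigit was seen across the CD8 clusters. Both E8icre libraries were below both fl/fl libraries in 10 of 11 clusters and overlapped in 1, and 0.0367% of the genes tested were lower without overlap in at least 10 clusters. The clusters are parts of the same 4 libraries, so they are not repeats of the comparison. Some rest on few Tigit UMIs, with 0, 0, 4 and 4 in interferon-stimulated-like cells of E8icre 1, E8icre 2, fl/fl 1 and fl/fl 2. The cluster led by Hba-a2 and Hbb-bs held 0, 0, 1 and 1. Resident-like cells were named from 3 of 5 listed markers, Itga1, Cxcr6 and Rgs1, while Itgae and Cd69 did not pass as raised. They held Tigit at 3.71, 4.75, 30.9 and 28.3 CPM (TMM) in E8icre 1, E8icre 2, fl/fl 1 and fl/fl 2, a log2 fold change of -2.76 (edgeR adjusted p = 0.310). Terminally exhausted-like (TTEX-like) cells held it at 5.49, 8.05, 33.7 and 37.8 CPM (-2.47, edgeR adjusted p = 0.450). Precursor exhausted-like (TPEX-like) cells held it at 0, 7.77, 20.9 and 19.2 CPM (-2.05, edgeR adjusted p = 0.881), where a count of 0 in E8icre 1 allows up to 3.82 CPM. In all 3 states the genotypes did not overlap, and over all CD8 Tc 14.2% of genes were lower without overlap. The share of such genes within each state was not counted. In none of the 3 states was the change of Tigit called within its own fit over all genes. Tigit passed the filter on low counts in these 3 fits only through the fl/fl libraries, where it was high. The changes within these states therefore add no support to the difference over all CD8 Tc. Without the library labelled E8icre 1 the change was -2.60 in resident-like cells and -2.14 in TTEX-like cells, and for TPEX-like cells that fit gave no value. In resident-like cells it was -2.95 without E8icre 2, -2.70 without fl/fl 1 and -2.81 without fl/fl 2. Each of these fits leaves 1 library in a genotype, so only the size of the change is given. Of the 12 states tested, 5 had any gene called by edgeR, at 0.0300% (TPEX-like), 0.0344% (cycling-like led by Ccnb2), 0.194% (interferon-stimulated-like), 0.0277% (CD4 led by Serpina3f and Igfbp7) and 0.117% (CD4 led by Ifitm1 and Ifitm2) of genes, and the other 7 had 0, with 121 to 321 genes at an unadjusted p under 0.05. When the 11 clusters were given the same weight in every library, the level of Tigit was at most 4.15 CPM in the E8icre libraries and 23.3 and 24.4 CPM in the fl/fl libraries, so the difference was as large at an equal mix of clusters.

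In CD4 Tc the levels of Tigit had the opposite order. They were 18.2 CPM (TMM) in the library labelled E8icre 1, 27.3 in E8icre 2, 11.6 in fl/fl 1 and 11.9 in fl/fl 2, from 56, 104, 17 and 12 UMIs. Both E8icre libraries lay above both fl/fl libraries, with a log2 fold change of 0.96 (SE 0.34, edgeR adjusted p = 0.999), which was not called, and 0.0103% of the genes tested in CD4 Tc were, while 15.4% were higher without overlap. Without the library labelled E8icre 1 the change was 1.21 (edgeR adjusted p = 0.744). Cytotoxic CD4-like cells, with high Nkg7, Prf1 and Eomes, held Tigit at 45.7, 56.4, 21.5 and 19.3 CPM, from 22, 23, 4 and 2 UMIs. The change in these cells was 1.28 (edgeR adjusted p = 1.00), and it was 1.44 without the library labelled E8icre 1. The genotypes did not overlap there, and the share of such genes within that state was not counted. Tigit passed the filter on low counts in that fit only through the E8icre libraries, where it was high, so its change there is no support. Over the 6 CD4 clusters, Tigit in both E8icre libraries lay above both fl/fl libraries in 3, and the genotypes overlapped in 3. Of the 9677 genes tested, 1066 were higher without overlap in at least 3 clusters, so this pattern was common. The largest CD4 cluster, led by Serpina3f and Igfbp7, was among those where the genotypes overlapped. There fl/fl 2 lay above E8icre 1 in plain CPM, and Tigit UMIs were 13, 35, 8 and 5 in E8icre 1, E8icre 2, fl/fl 1 and fl/fl 2. At an equal mix of the 6 CD4 clusters the levels of Tigit were 21.1, 28.0, 12.3 and 13.8 CPM. The difference between the 2 genotype effects was tested in 1 fit with the library as a block, and it was -3.36 on the log2 scale (SE 0.35, adjusted p = 0.00692 by edgeR), the smallest p among 10898 genes, of which 0.0184% were called, 0.00918% in each direction. Without the library labelled E8icre 1, which leaves 1 E8icre library, it was -3.68. Where CD8 and CD4 Tc were assigned by whole clusters and not cell by cell, it was -1.88 (adjusted p = 0.144), and the clusters taken as CD8 then held 799 CD4-gated cells with 108 Tigit UMIs beside 4148 CD8-gated cells with 253.

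**Figure D1:**
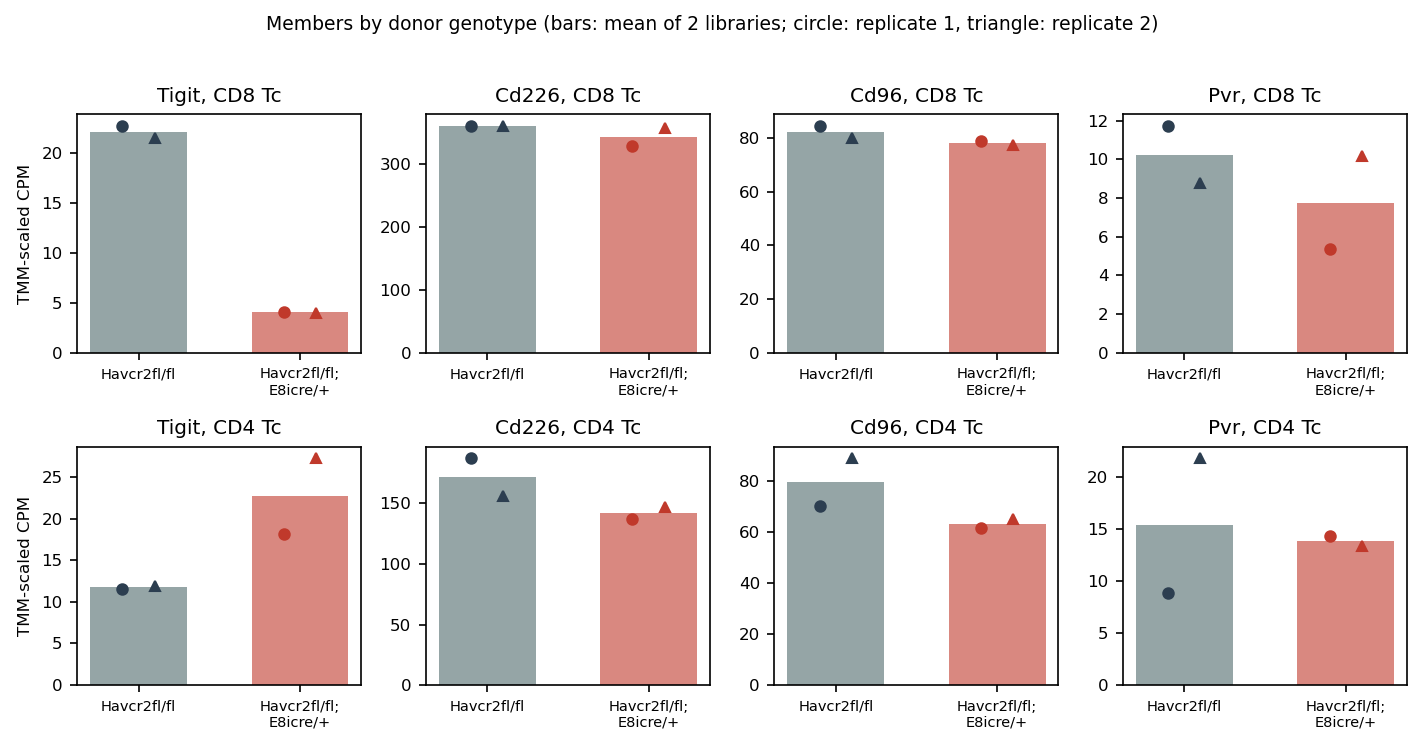
Each panel plots 1 gene in CD8 Tc (upper row) or CD4 Tc (lower row), with TMM-scaled CPM on the y axis from 0, bars for the mean of 2 libraries and points for the libraries (circle, replicate 1; triangle, replicate 2). In CD8 Tc Tigit lies near 4.0 CPM in both E8icre libraries and at 22.7 and 21.5 CPM in the fl/fl libraries, while Cd226 and Cd96 lie at similar heights in both genotypes.

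Cd226 and Cd96 were not called between the genotypes. In CD8 Tc Cd226, the costimulatory receptor, was at 329 CPM (TMM) in the library labelled E8icre 1, 357 in E8icre 2 and 361 in both fl/fl libraries (log2 fold change -0.07, SE 0.19). Cd96 was at 79.0 and 77.5 CPM in the E8icre libraries and at 84.5 and 80.1 CPM in the fl/fl libraries (-0.07, SE 0.17). The spread between libraries was narrow for this pair, but a p that misses the threshold does not show equal levels. In CD4 Tc Cd226 was at 137, 147, 187 and 156 CPM in E8icre 1, E8icre 2, fl/fl 1 and fl/fl 2 (-0.28, SE 0.20), and Cd96 was at 61.7, 65.1, 70.2 and 89.1 CPM (-0.32, SE 0.21). For both genes the E8icre libraries lay under the fl/fl libraries in CD4 Tc without overlap, as did 15.6% of the genes tested, and neither was called.

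Effector-like cells of the library labelled E8icre 1 stood apart for Cd226. In these cells, marked by Gzmk, Gzmb and Ccl5, Cd226 was at 68.4 CPM (TMM) in that library, from 39 UMIs, and at 388, 394 and 398 CPM in E8icre 2, fl/fl 1 and fl/fl 2, from 164, 119 and 136 UMIs. The 3 latter libraries lay close together, and thinned to 2000 UMIs the share of these cells with a Cd226 UMI was 5.59%, 37.8%, 36.7% and 52.8%, and the log2 fold change between genotypes was -0.83 (SE 0.47, edgeR adjusted p = 1.00). Cd96 in the same cells was at 98.2, 70.2, 104 and 98.0 CPM (plain CPM, before TMM scaling), where E8icre 2 was the lowest and E8icre 1 lay beside the fl/fl libraries. Cytotoxic CD4-like cells of the same library also had the lowest Cd226, at 43.6 CPM (TMM) against 181, 269 and 126 CPM in the remaining 3.

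Across the CD8 states Cd226 varied by more than the spread between libraries. Levels by state are means of plain CPM over the 4 libraries ± SD, and with tags counted only at the 3′ end levels are compared between states and not between genes. Cd226 was highest in interferon-stimulated-like cells (521 ± 92.0 CPM, n = 4), resident-like cells (509 ± 7.92 CPM, n = 4) and TTEX-like cells (479 ± 48.9 CPM, n = 4), which did not differ from each other beyond that spread. The mean of the next state, short-term effector-like cells with high Klrg1 and Cx3cr1 (350 ± 78.8 CPM, n = 4), was lower by more than the pooled SD, but its libraries overlapped those of TTEX-like cells, with E8icre 2 at 450.2 CPM. TPEX-like cells, with high Tcf7 and Slamf6, were lowest at 189 ± 19.0 CPM (n = 4) and did not overlap the next higher state. TTEX-like cells exceeded TPEX-like cells by 290.6 CPM, with library values of 445, 460, 461 and 552 CPM against 176, 191, 215 and 174 CPM in E8icre 1, E8icre 2, fl/fl 1 and fl/fl 2. The TTEX-like level was the higher in 4 of 4 libraries, and with cells thinned to 2000 UMIs the share of cells with a Cd226 UMI was 24.6 percentage points higher. In the 3 erythroid-like clusters, which should lack Cd226, that share was at most 1.57% in any library, at median depths of 3414.5 to 37153 UMIs per cell before thinning against 4803 over all CD8 Tc. States were defined by clustering without the members, and no test was run between them. Genes without overlap between states were not counted.

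Over the CD8 states Cd96 was at 114 ± 19.97 CPM in resident-like cells, 108 ± 10.9 CPM in TTEX-like cells, 78.5 ± 14.0 CPM in TPEX-like cells and 44.1 ± 5.28 CPM in the cycling-like cells led by Hist1h2ap (n = 4 each). Only the last of these, at the foot of the order, was separated from its neighbour, the cluster led by Dtl and Cdca7, by more than the spread, though their libraries overlapped. Tigit ranged from 21.9 ± 21.1 CPM in effector-like cells and 20.7 ± 16.5 CPM in TTEX-like cells to 4.79 ± 9.58 CPM in short-term effector-like cells (n = 4 each). The last value rests on 1 Tigit UMI in 89 cells, where 3 counts over all 4 libraries stand for 10.0 CPM. No neighbours in the order of Tigit differed beyond their spread, which held the difference between genotypes. Among CD4 states Tigit was highest in cytotoxic CD4-like cells (33.3 ± 16.96 CPM, n = 4) and Treg-like cells (28.9 ± 22.7 CPM, n = 4), and lowest in the cluster led by Ifitm1 and Ifitm2 (7.24 ± 6.95 CPM, n = 4). From cytotoxic CD4-like down to precursor memory CD4-like cells, neighbours in the order did not differ beyond their spread.

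**Figure D2:**
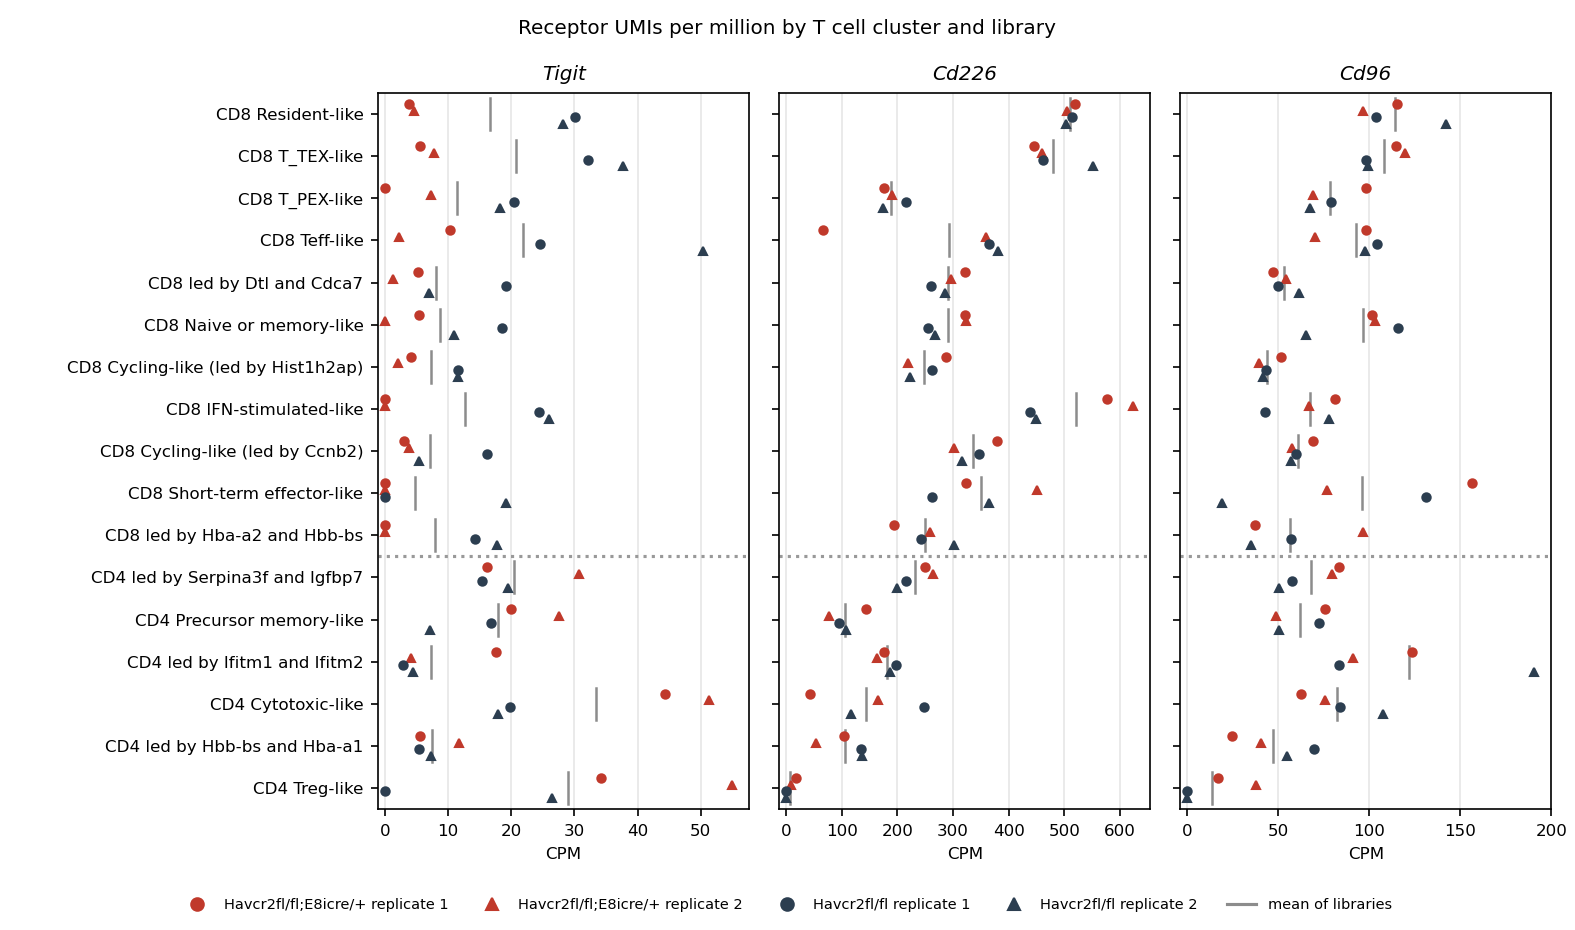
Plain CPM (x axis, linear) of Tigit, Cd226 and Cd96 in each CD8 cluster (above the dotted line) and CD4 cluster (below it), with a point per library and a gray bar for the mean of 4 libraries. Cd226 is lowest in TPEX-like cells among CD8 Tc and near 0 in Treg-like cells, and the fl/fl points for Tigit lie to the right of the E8icre points in most CD8 rows.

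Treg-like cells were the state with the least Cd226. Their Cd226 level was 17.1, 8.45, 0 and 0 plain CPM in E8icre 1, E8icre 2, fl/fl 1 and fl/fl 2, against 249, 264, 215 and 199 CPM in the largest CD4 cluster, led by Serpina3f and Igfbp7. The Treg-like level was the lower in 4 of 4 libraries. With finer clusters the mean over Treg-like cells was 194 CPM instead of 6.40, since the markers then also named a cluster of 514 cells, of which 0.389% had a Foxp3 UMI, while the cluster of 109 cells (80.7% with a Foxp3 UMI) kept its value. Treg-like cells held 18 Tigit UMIs and 4 Cd226 UMIs, so Tigit made up 81.8% of the UMIs of the pair (95% Wilson interval 61.5 to 92.7%, counting error only). The E8icre libraries gave 4 and 13 of these Tigit UMIs and all 4 Cd226 UMIs, while fl/fl 1 gave none of either gene and fl/fl 2 gave 1 Tigit UMI, so the share describes the E8icre libraries. In cytotoxic CD4-like cells the share was 51.2%, 23.7%, 7.41% and 13.3% in E8icre 1, E8icre 2, fl/fl 1 and fl/fl 2. Over all CD4 Tc it was 11.7%, 15.7%, 5.82% and 7.06%, and over all CD8 Tc 1.22%, 1.11%, 5.92% and 5.62%, in the same order. CD4 Tc thus lay above CD8 Tc in the E8icre libraries, while in the fl/fl libraries their ranges overlapped. Treg-like cells numbered 109, of which fl/fl 1 gave 5, and a count of 0 allows up to 76.0 CPM there and 79.2 CPM in fl/fl 2.

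A split of CD4 Tc by Foxp3, the Treg-defining transcription factor, was defined without the clusters but drew on mostly the same cells. Of the 109 Treg-like cells 88 had a Foxp3 UMI. The split was also added after seeing the data, so its test is not independent of the Treg-like result. The 113 CD4 Tc with a Foxp3 UMI had Cd226 at 13.4, 21.3, 39.1 and 0 CPM (TMM) in E8icre 1, E8icre 2, fl/fl 1 and fl/fl 2, and CD4 Tc without one had 155, 172, 206 and 178 CPM. Cd226 was lower in 4 of 4 libraries without overlap, by a log2 fold change of -3.20 (SE 0.34, edgeR adjusted p = 5.19e-10), where 7.84% of 6991 genes were called, 4.28% lower and 3.56% higher. Genes without overlap in this split were not counted. The count of 0 in fl/fl 2, from 17 cells, allows up to 53.8 plain CPM. Cd96 was at 40.1, 27.4, 0 and 17.2 CPM against 67.8, 74.4, 77.7 and 100 CPM, also lower in 4 of 4 libraries (log2 fold change -1.48, SE 0.37, adjusted p = 0.0047 by edgeR). Its count of 0 in fl/fl 1 allows up to 62.1 plain CPM. The Cd96 call was lost with DESeq2 (adjusted p = 0.0630) and without E8icre 2 (adjusted p = 0.125). Tigit was at 20.1, 42.6, 0 and 0 CPM against 19.5, 28.0, 12.8 and 13.5 CPM (0.24 on the log2 scale, SE 0.47, edgeR adjusted p = 0.901), from 3, 14, 0 and 0 UMIs in the Foxp3 cells. The counts of 0 come from 6 and 17 cells and allow up to 62.1 and 53.8 plain CPM, above the levels they are set against, so no direction can be read in the fl/fl libraries.

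A split of CD8 Tc by Tcf7, the transcription factor of stem-like Tc, was made in the same way. Cd226 was at 242, 212, 210 and 217 CPM (TMM) in CD8 Tc with a Tcf7 UMI and at 341, 405, 384 and 367 CPM in CD8 Tc without one, in the order E8icre 1, E8icre 2, fl/fl 1, fl/fl 2. It was lower in 4 of 4 libraries without overlap (log2 fold change -0.76, SE 0.091, edgeR adjusted p = 1.33e-05), where 14.7% of 9672 genes were called, 7.09% lower and 7.62% higher. How many genes did not overlap in this split was not counted. Tigit was at 0, 4.82, 10.6 and 12.1 CPM against 4.63, 3.67, 24.6 and 21.96 CPM (-0.85, SE 0.40, edgeR adjusted p = 0.187), lower in 3 of 4 libraries. Cd96 (-0.16, SE 0.13) and Pvr (-0.14, SE 0.32) were not called. Median depth was 3364 to 6569.5 UMIs per library with Tcf7 and 3007 to 7113 without, and both splits were added after seeing the data.

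Between CD8 and CD4 Tc of the same libraries the receptors differed in size and direction. Cd226 was at 341, 363, 367 and 369 CPM (TMM) in CD8 Tc and at 134, 143, 183 and 153 CPM in CD4 Tc of E8icre 1, E8icre 2, fl/fl 1 and fl/fl 2. It was higher in CD8 Tc in 4 of 4 libraries without overlap, by a log2 fold change of 1.25 (SE 0.068, edgeR adjusted p = 2.44e-08), where 24.7% of 10331 genes were called, 12.9% higher and 11.9% lower. Genes without overlap between CD8 and CD4 Tc were not counted. Cd96 was at 81.8, 78.8, 85.9 and 81.9 CPM against 60.4, 63.3, 68.7 and 87.3 CPM, higher in CD8 Tc in 3 of 4 libraries (log2 fold change 0.27, SE 0.086, edgeR adjusted p = 0.0326). The Cd96 call was lost with DESeq2 (adjusted p = 0.218), without the library labelled E8icre 1 (0.220), without E8icre 2 (0.132) and without fl/fl 1 (0.0953), and its sign turned when Tc were assigned by cluster (-0.07). Tigit was lower in CD8 than CD4 Tc in 2 of 4 libraries, both of them E8icre (log2 fold change -0.93, SE 0.46, edgeR adjusted p = 0.166), and higher in the fl/fl libraries. Without fl/fl 1 its difference was -1.48 (edgeR adjusted p = 0.0302), in a fit that kept both E8icre libraries and only 1 fl/fl library. As the direction differed between the genotypes, this value depends on how many libraries of each were kept.

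**Figure D3:**
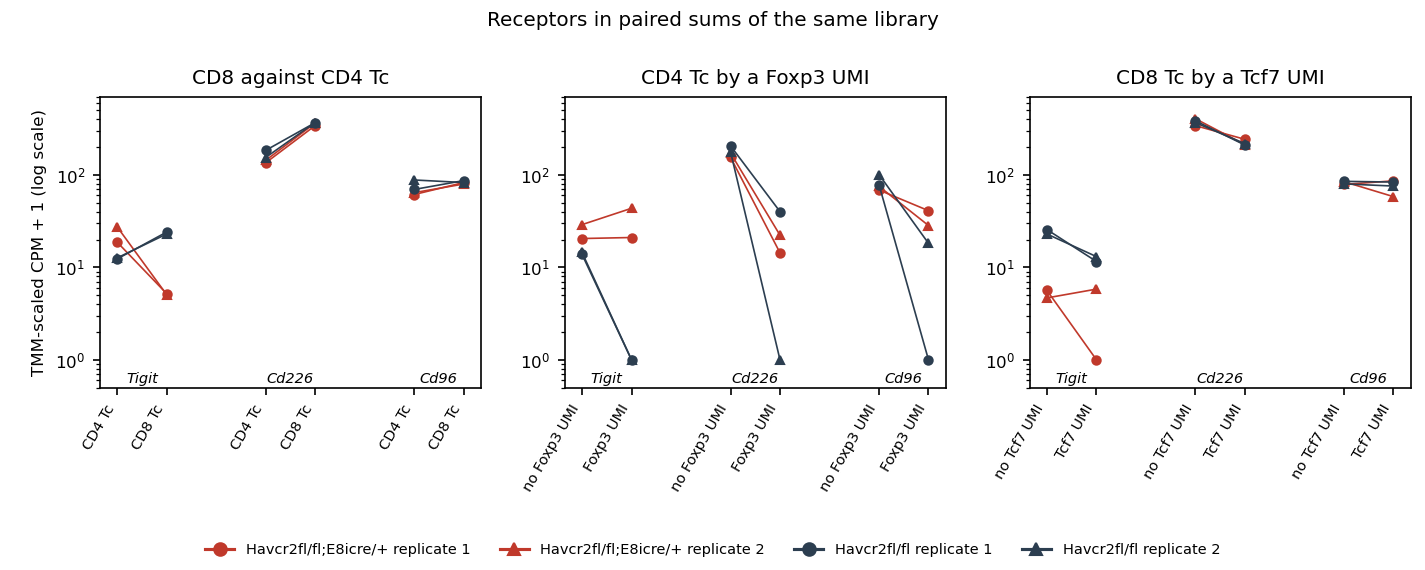
TMM-scaled CPM + 1 on a log axis for Tigit, Cd226 and Cd96, with a line per library joining CD4 to CD8 Tc (left), CD4 Tc without to with a Foxp3 UMI (middle) and CD8 Tc without to with a Tcf7 UMI (right). The 4 Cd226 lines run the same way in each panel, while the Tigit lines of the left panel fall in the E8icre libraries and climb in the fl/fl libraries.

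Pvr and Nectin2 differed in where they were counted. Pvr, the main ligand of all 3 receptors, had 381 UMIs in Tc and 108 in other cells, and Nectin2 had 7 in Tc and 186 in other cells. As plain CPM Pvr was at 8.93 ± 2.51 in CD8 Tc, 14.5 ± 5.12 in CD4 Tc and 1.36 ± 0.557 in other cells (n = 4 each), and both Tc classes lay above the other cells in every library. Nectin2 was at 0.158 ± 0.132 CPM in Tc and 2.02 ± 0.578 CPM in other cells (n = 4 each), again without overlap. How many of all genes do not overlap between Tc and other cells was not counted. Other cells were deeper, at a median of 16915 UMIs per cell against 4803 in CD8 Tc and 4520 in CD4 Tc. A lower CPM there does not mean fewer Pvr UMIs per cell. Granulocyte-monocyte progenitor-like cells held Pvr at a mean of 4.04 CPM, at a median of 33106 UMIs per cell. Free RNA in the droplets was not measured. The 54 cells with a low H-2Kb tag (over 3 median absolute deviations under the median) held 1 Pvr and 4 Nectin2 UMIs.

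Within CD8 Tc the highest Pvr means were 21.5 CPM in the cluster led by Hba-a2 and Hbb-bs, 18.9 CPM in short-term effector-like cells and 18.6 CPM in naive or memory-like cells, and these did not differ from resident-like cells beyond the spread between neighbours in the order. The first and second of these rest on 41 and 89 cells. In a single library 3 counts stand for at least 22.4 CPM in the first and 31.3 CPM in the second, above their means. Pvr was at 15.6 ± 2.71 CPM in resident-like cells, at 9.95 ± 2.02 CPM in TPEX-like cells and at 4.72 ± 1.88 CPM in TTEX-like cells (n = 4 each). Resident-like cells held 14.0, 18.1, 17.7 and 12.7 CPM and TTEX-like cells 4.29, 2.58, 7.14 and 4.85 CPM in E8icre 1, E8icre 2, fl/fl 1 and fl/fl 2, without overlap. How many of all genes do not overlap between these states was not counted. With clusters made without integration of the libraries the resident-like mean was 9.45 CPM. Among CD4 Tc it was highest in the cluster led by Serpina3f and Igfbp7 (21.2 ± 9.85 CPM, n = 4). Between genotypes Pvr in CD8 Tc was at 5.35, 10.2, 11.7 and 8.76 CPM (TMM; log2 fold change -0.41, SE 0.36) and in CD4 Tc at 14.3, 13.4, 8.86 and 21.8 CPM (-0.08, SE 0.41), and the libraries overlapped in both. Between CD8 and CD4 Tc it was lower in CD8 Tc in 3 of 4 libraries (log2 fold change -0.66, SE 0.25, edgeR adjusted p = 0.0740), and without fl/fl 1 the difference was -0.91 (adjusted p = 0.0166).

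Outside Tc Nectin2 had most of its UMIs in the largest cluster and its highest mean level in stem or progenitor-like cells. These were named from 4 of 7 listed markers, Kit, Angpt1, Muc13 and Meis1, while Cd34, Hlf and Mecom did not pass as raised. Nectin2 was at 5.81, 2.64, 7.76 and 6.43 plain CPM in stem or progenitor-like cells of E8icre 1, E8icre 2, fl/fl 1 and fl/fl 2, from 44 UMIs. In the largest cluster, led by Mt2 and Sphk1 and not named, it was at 3.42, 3.43, 1.51 and 1.96 CPM, from 111 UMIs. The first class was the higher in 3 of 4 libraries. Granulocyte-monocyte progenitor-like cells, with Mpo and Elane, held Pvr at 4.58, 5.33, 3.67 and 2.59 CPM, and stem or progenitor-like cells held it at 1.55, 3.69, 2.22 and 3.78 CPM. The 3 erythroid-like clusters together held 2 Pvr and 4 Nectin2 UMIs. In other cells as a whole Nectin2 was at 2.58, 1.88, 1.90 and 1.64 CPM (TMM; log2 fold change 0.34, SE 0.42) and Pvr at 1.21, 2.00, 1.60 and 0.638 CPM (log2 fold change 0.57, SE 0.67), and neither was called. Of 12561 genes tested there edgeR called 0, with 183 at an unadjusted p under 0.05, and DESeq2 called 24.

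**Figure D4:**
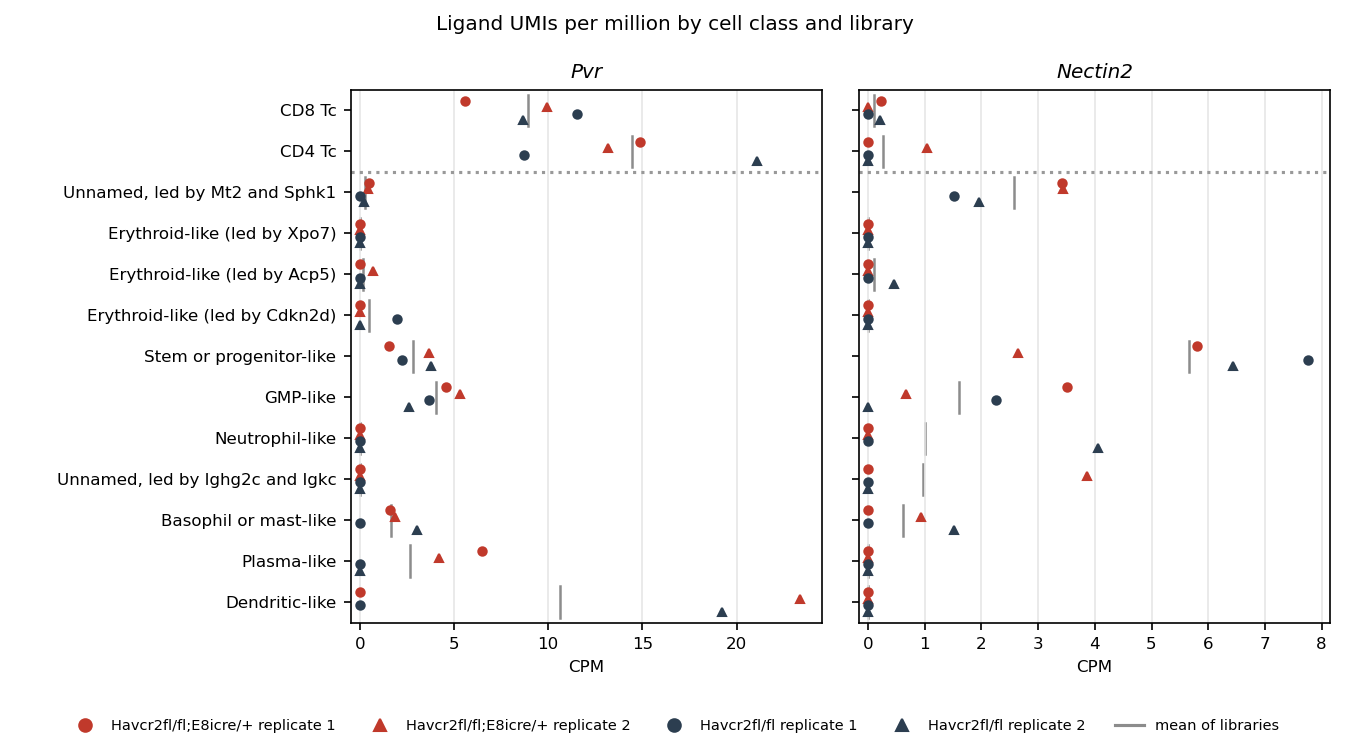
Plain CPM (x axis, linear) of Pvr and Nectin2 in CD8 and CD4 Tc (above the dotted line) and in the clusters of other cells (below it), with a point per library and a gray bar for the mean of 4 libraries. Pvr is higher in Tc than in erythroid-like and neutrophil-like cells, whereas Nectin2 is near 0 in Tc and highest in stem or progenitor-like cells; the 2 high Pvr points of dendritic-like cells rest on 6 UMIs in 75 cells.

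Of 7 related receptors and ligands, Pvrig (a receptor for nectin-2), Crtam (a receptor for CADM1) and Afdn (afadin, which ties nectins to actin) had enough counts to be tested in CD8 and CD4 Tc, and all 3 were higher in CD8 Tc by edgeR, as were 12.9% of all genes tested. Crtam was at 17.4, 32.7, 28.5 and 18.3 CPM (TMM) in CD8 Tc and at 4.13, 9.96, 5.33 and 4.85 CPM in CD4 Tc of E8icre 1, E8icre 2, fl/fl 1 and fl/fl 2 (log2 fold change 1.94, SE 0.17). Pvrig was at 7.87, 9.63, 6.23 and 9.59 CPM against 4.45, 5.87, 1.33 and 3.88 CPM (0.97, SE 0.26, edgeR adjusted p = 0.013). Both genes were higher in CD8 Tc in 4 of 4 libraries. Their ranges did not overlap, narrowly for Pvrig (6.23 against 5.87 CPM), and the share of all genes without overlap was not counted. In CD8 Tc with a Tcf7 UMI Crtam was higher (log2 fold change 2.36, SE 0.18) and Pvrig lower (log2 fold change -2.70, SE 0.51), each in 4 of 4 libraries, and Afdn was higher (1.81, SE 0.37), where 14.7% of all genes were called. Between genotypes none of the 3 was called in CD8 Tc, with a list median of 0.09 on the log2 scale against -0.004 over all genes. Nectin1 had 77 UMIs, Nectin3 3 and Nectin4 15 in other cells, and Cadm1 (the ligand of CRTAM) had 165 of its 175 UMIs in other cells in the 75 dendritic-like cells, of which it was a leading gene.

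Among 11 signaling partners of TIGIT and CD226, 0 were called by edgeR between genotypes in CD8 Tc and 0 in CD4 Tc, with 0 of 11 at an unadjusted p under 0.05 in either, beside 0.0275% and 0.0103% of all genes called, and list medians of 0.05 and 0.09 on the log2 scale against -0.004 and -0.007 over all genes. The most abundant of them, Fyn, Itgb2 and Itgal (the alpha chain of LFA-1), had log2 fold changes of 0.03 (SE 0.20), 0.05 (SE 0.19) and 0.13 (SE 0.21) in CD8 Tc. Between CD8 and CD4 Tc 2 were higher in CD8 Tc, Fyn (log2 fold change 0.36, SE 0.063), a kinase downstream of CD226, and Itgb2 (0.30, SE 0.057), the beta chain of LFA-1. The 5 lower ones were Ptpn11 (SHP-2; log2 fold change -0.53, SE 0.060), Ptpn6 (SHP-1; -0.43, SE 0.12), Lcp2 (SLP-76; -0.33, SE 0.055), Prkcq (-0.26, SE 0.061) and Grb2 (-0.19, SE 0.062). With 7 of 11 called, the share stood beside 24.7% of all genes. In CD4 Tc with a Foxp3 UMI 3 were lower, Ptpn11 (-2.04, SE 0.26), Itgal (-1.22, SE 0.19) and Fyn (-0.90, SE 0.18), beside 4.28% of all genes. In CD8 Tc with a Tcf7 UMI Ptpn6 (1.021, SE 0.14), Prkcq (0.67, SE 0.10) and Ptpn11 (0.33, SE 0.092) were higher and Itgb2 (-0.58, SE 0.082) lower, 4 of 11 beside 14.7% of all genes called. Inpp5d (SHIP-1) and Arrb2, which the tail of TIGIT is known to recruit, and Vav1 were called in none of these comparisons.

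Tigit UMIs were found in cells with and without Cd226 UMIs. In CD8 Tc thinned to 2000 UMIs, 2.93% of 1877 cells with a Cd226 UMI and 2.18% of those without one, of 4077 cells in all, had a Tigit UMI, and the mean difference over libraries was 0.452 percentage points. In CD4 Tc these shares were 6.11% and 3.86%, with a mean difference of 1.37 points, and the difference was below 0 in 1 library of each class. Thinned to 4000 UMIs the mean difference was 2.21 points in CD8 Tc and -1.30 points in CD4 Tc, so its size and, in CD4 Tc, its sign depended on the depth chosen. These are sparse counts, with 55 CD8 Tc and 25 CD4 Tc holding both.

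Across the 17 CD8 and CD4 clusters, means over the same 4 libraries, the genes whose log2(CPM + 1) was most like that of Cd226 were Atp8b4 (Pearson r = 0.94), St3gal6 (0.94), Cxcr6 (0.93), Pde3b (0.92) and Ptpn12 (0.92), of 5932 compared. For Cd96 they were Themis (0.90), Pde7a (0.89), 2210016L21Rik (0.88), Cxcr6 (0.87) and Camk2g (0.87). Cd226 and Cd96 themselves had r = 0.80, and Cxcr6 was on both lists. For Tigit they were Msi2 (0.93), Crbn (0.92), Skil (0.92), Lbh (0.90) and Arid5b (0.89), and its r with Cd226 was -0.37. For Pvr they were Btg2 (0.78), Retreg3, Tcp11l2, Rnpepl1 and Txndc11 (each 0.75 or 0.76), and Nectin2 had too few UMIs in Tc to be compared. The clusters share libraries and differ in depth, so these values are descriptions.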

How the data were processed

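UMI counts per gene and cell were deposited by the authors for 4 libraries, made with 10x 3′ v3.1 chemistry and, per the submitters' processing notes, Cell Ranger 6.1.2 and mm10. The labels describe isolation with a pan-T kit, the study's text also a sort. Barcodes with 500 or more genes, 1000 or more UMIs and no more than 10% mitochondrial reads were retained (11632 of 15784), less 125 doublets called by Scrublet. Cells were clustered with Seurat 5.3.0 (CCA integration, 30 dimensions) without the members and their pathway genes, and clusters were named from marker lists. UMIs summed per library and class were tested with edgeR 4.0.16 (quasi-likelihood, TMM, filterByExpr, Benjamini-Hochberg over all genes, threshold 0.05). Alternatives were DESeq2 1.42.0, its size factors, other filters and doublet rules, assignment by cluster, and each library left out. Libraries held 17693991 to 55045903 UMIs, and the H-2Kb tag was kept out of sums. Scripts were tested on simulated data. Named genes were the members, genes of the related and signaling lists past the threshold or otherwise the 3 most abundant, and the 5 genes most like each member. Of 32285 gene IDs, 32158 matched the annotation. Members and lists were chosen with earlier results of these data known. Wilson intervals (95%) and limits from a count of 0 (3 counts) cover counting error only.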

Additional observations from a re-analysis of the deposited data

Results flagged for a closer look

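The genotype effect on Tigit differed between CD8 and CD4 Tc, by -3.36 on the log2 scale (SE 0.35, adjusted p = 0.00692 by edgeR over 10898 genes), since the effect was -2.44 in CD8 Tc and 0.96 in CD4 Tc. The direction was shared by all 11 alternatives to this result, from -3.68 to -1.88, and 10 of them were past the threshold. Those without 1 library leave 1 library in a genotype, so their p-values do not measure its spread. The family was proposed with this difference known. The library labelled Havcr2fl/fl;E8icre/+ replicate 1 had Havcr2 within the range of the floxed controls in CD8 Tc, and without it the difference was -3.68.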

How the results depend on the processing

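Tigit in CD8 Tc was lower under all 12 alternatives, from -2.48 to -1.32 on the log2 scale, and past the threshold in 7. Over single values and alternatives, 289 stayed the same, 14 lost a call, 9 gained one, 11 values or counts moved and 23 changed sign. Here the same means equal direction and side of the threshold, a level within the SD over libraries, or a gene count within 1.5-fold. The main results, mostly numbers of genes called, were counted apart, and 39 moved while 34 stayed the same. The number of genes called moved more, and the cause was not tested. For genotype in CD8 Tc it was 3, and 84 with no filter on low counts, 0 with doublets kept, and 0 to 33 without 1 library. In CD4 Tc it was 1, and 0 with DESeq2 size factors, the stricter cell filter, doublets kept or doublets by expected rate, 5 with DESeq2, 53 with no filter, 2 by cluster, and 5 to 29 without 1 library. In other cells it was 0, and 24 with DESeq2, 54 with no filter, and 0 to 406 without 1 library. For CD8 against CD4 Tc it was 2555, and 1504 with DESeq2. For the difference of the genotype effects it was 2, and 60 with no filter, 4 with the stricter cell filter or doublets by expected rate, and 4 to 55 without 1 library. Within states it was 20, and 79 to 212 without 1 library. By Foxp3 it was 548, and 347 with DESeq2 and 277 to 506 without 1 library. By Tcf7 it was 1423, and 887 with DESeq2 and 782 to 1513 without 1 library. Libraries with the same replicate number did not deviate together (correlation -0.117 in CD8 Tc, -0.0832 in CD4 Tc, -0.162 in other cells). With 2 libraries a genotype this check gives 1 value per class, so it shows no pairing but cannot exclude it. With the replicate block the counts were 0 in CD8 Tc (Tigit -2.45, adjusted p = 0.434 by edgeR), 5 in CD4 Tc and 82 within states (Tigit in resident-like cells, adjusted p = 0.000337 by edgeR). In resident-like cells Tigit passed the filter on low counts only through the fl/fl libraries, so that call is no support. A crossed block, added after seeing the data, gave 60 in CD8 Tc and 0 in other cells.

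Signs turned for values that were not called, except Cd96 between CD8 and CD4 Tc by cluster (-0.067). With doublets kept, genotype values became 0.078 for Cd226 and 0.074 for Cd96 in CD8 Tc and 0.12 for Pvr in CD4 Tc. With the stricter filter they became 0.042 for Pvr in CD4 Tc and -0.18 for Cd96 in other cells. By cluster they became 0.084 for Cd226 and 0.71 for Pvr in CD4 Tc, and the differences of effects -0.28 for Cd226 and -0.019 for Cd96. In other cells Cd96 became -0.014 with DESeq2, and Cd226 and Cd96 became -0.35 and -0.45 with doublets by expected rate. DESeq2 gave -0.083 for Tigit by Foxp3. Without 1 library the ranges were -0.65 to 0.63 for Pvr in CD4 Tc, -0.53 to 1.87 for Cd226 and -0.76 to 1.44 for Cd96 in other cells, -1.25 to 0.47 for the Pvr difference of effects, -0.28 to 0.036 for Cd96 and -0.77 to 0.026 for Pvr by Tcf7, and -0.082 to 0.87 for Tigit in the CD4 cluster led by Serpina3f. Thinned to 4000 UMIs, the difference in Tigit share by Cd226 was 2.21 points in CD8 Tc and -1.30 in CD4 Tc. No cytotoxic CD4-like value came at the lower resolution. With 447 Tigit UMIs in CD8 and CD4 Tc, depth limits what single states can show.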
